A study of Macaca mulatta with 26 samples.

Results

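The circRNAs of rhesus monkey (Macaca mulatta) skeletal muscle were compared between old and young animals at the level of the host transcript, the linear transcript that each circRNA was assigned to. Vastus lateralis, a thigh muscle, was obtained from 7 old monkeys aged 25.7, 27, 28.7, 30.1, 32, 40.1 and 40.9 years and from 6 young monkeys aged 0.003, 0.005, 0.03, 2.8, 4.06 and 6 years, and 1 library per monkey was sequenced at approximately 20000000 reads. All animals were housed individually, received a normal diet without restriction and were given no treatment that the labels name, and total RNA of every sample was digested with RNase R. Per the labels the monkeys belonged to a long-running study of diet and aging, sex was not among the labels used here, and the young group joins 3 animals under 1 year of age with 3 older ones. The back-splice junction reads of all circRNAs with the same host were summed in each library, and a host that was not listed in a library was counted as 0 there. Of the 10613 hosts with reads in these 13 libraries (19964 in all 26 libraries of the series), 34 had 10 or more reads in at least 5 libraries and were tested. The read minimum did not use the age groups. At the threshold, 15 hosts reached 10 reads in exactly 5 libraries, with 80 to 413 reads in total, and 11 hosts stopped at 4 libraries, with 59 to 362 reads.

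A circRNA arises when the splicing machinery connects the downstream end of an exon back to its own start or to that of an exon before it, and the closed ring has no free end for an exonuclease to attack. RNase R therefore removes most linear RNA and leaves circles, and a read across the back-splice junction marks one. A host transcript can give several circles that share some exons, while circular intronic RNAs come from introns whose lariat is not opened. CircRNAs are stable and are known to build up with age in some tissues, above all in the nervous system. In whole muscle the RNA comes from fibres and other cells together, so that fewer cells of a type and less RNA per cell cannot be told apart.

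The young libraries held 1996 to 7918 junction reads (median 4568) and the old libraries 1317 to 8144 (median 4924), 57390 in all. Levels are given as junction reads per 1000 junction reads of the library, and 3 reads, taken as a floor, were 0.0368% to 0.228% of its reads. These limits cover counting error only, since the protocol names no molecular identifiers. Values below this floor, down to 1 read, are given as they stand. The 34 hosts held 8066 of the reads (14.1%), from 80 to 666 reads each. Annotated Ensembl transcripts (names beginning ENSMMUT) made up 17 of them, and 17 were transcripts that the authors had assembled from these reads (names beginning PREDICTED). Gene symbols could not be attached to any of them, because the files do not pair these names with symbols and 0 of the 34 matched the gene tables used here, so that the hosts are given by name and by position on rheMac2, and neither the muscle markers nor any gene list could be evaluated.

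The name of a host was not stable from library to library. Of the 4576 junctions that were seen in 2 or more of the 13 libraries, 3416 (74.7%) were listed under 2 or more host names. Among the 442 values of the 34 hosts (34 hosts in 13 libraries) 118 were 0 (26.7%), and in 92 of these (78%) the same junctions had reads in the same library under another name. Values of 0 came to 53 of 204 values in young (26%) and 65 of 238 in old (27.3%). When the junctions of each host were counted under any name, the 34 hosts held 11145 reads (19.4% of the total), of which 3079 (27.6%) lay under other names, and only 10 of 204 young values (4.90%) and 16 of 238 old values (6.72%) remained at 0. Both counts are therefore given, the first as "own name", which is the comparison as designed, and the second as "any name", which was added after the data had been seen. A junction that is listed nowhere in a library may have had no read or may not have been called there, and these cannot be told apart.

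**Figure D1:**
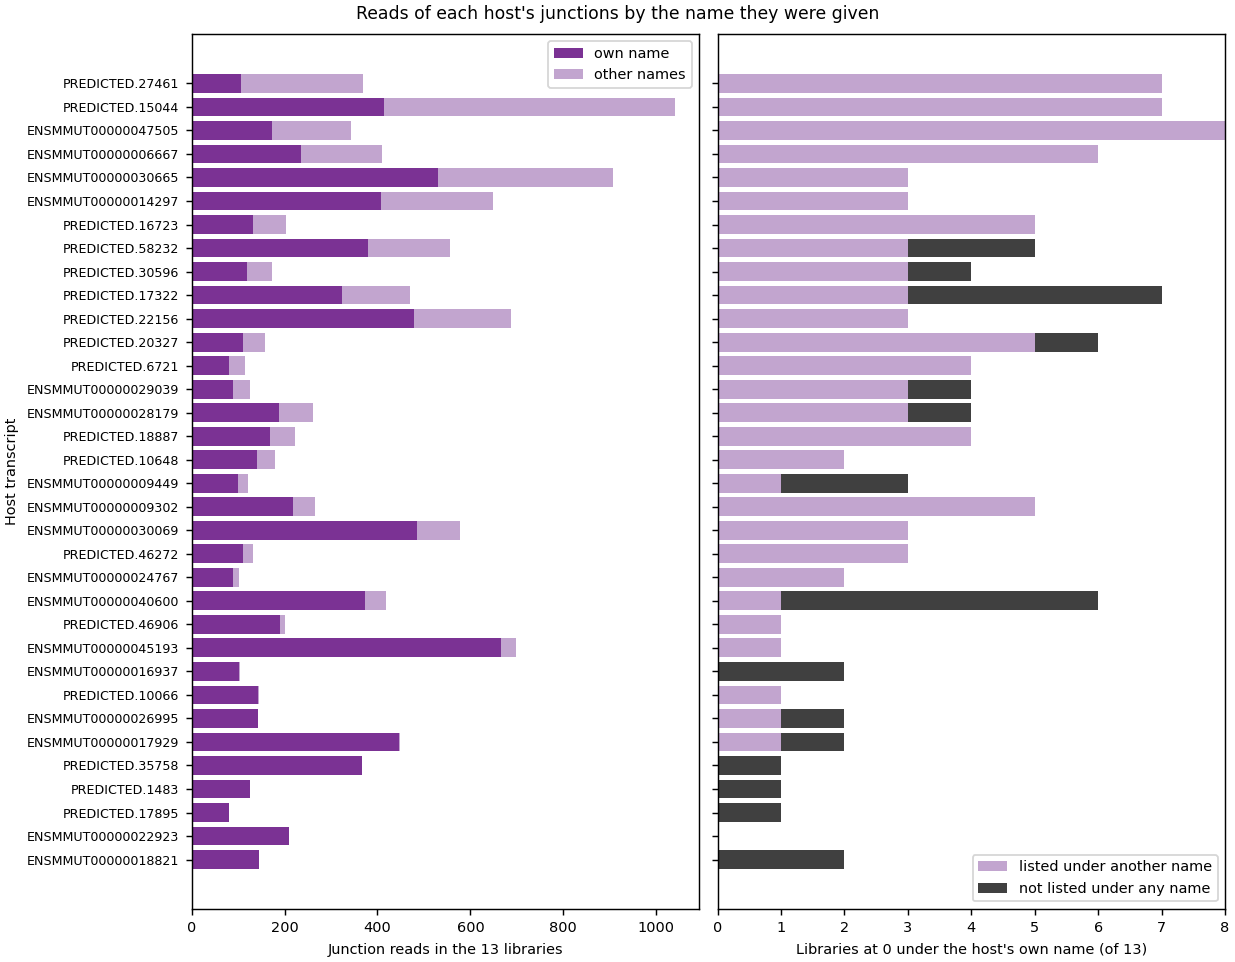
Junction reads of the 34 hosts in the 13 libraries, by the name that the junctions were given (left, reads under the host's own name and under other names), and the number of libraries in which the own name was at 0 (right, split by whether the same junctions were listed under another name). From 0% of reads under other names in 5 hosts, the share reaches 71.2% in PREDICTED.27461, and 92 of the 118 zeros have reads under another name.

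No host passed the test between old and young. With edgeR's quasi-likelihood test and Benjamini-Hochberg adjustment over the 34 hosts, 0 hosts were higher in old and 0 were lower at an adjusted p of 0.05 (0% of the hosts tested), and the lowest adjusted p was 0.971. None reached an unadjusted p under 0.05 (lowest 0.198), and DESeq2 likewise called 0 with 0 at an unadjusted p under 0.05. Log2 fold changes ran from -1.37 to 2.26, with 18 above and 16 below 0, a median of 0.06 and a median standard error (SE) of 1.05. Leaving out the youngest animal (0.003 years), 3 hosts were called higher in old (PREDICTED.15044, PREDICTED.17322 and PREDICTED.27461, lowest adjusted p 0.0141), which were at 0 in the other 5 young libraries under their own names, where the same junctions had 513, 143 and 173 reads under other names. The read minimum was not applied again in that fit. PREDICTED.15044 and PREDICTED.27461 had reached 10 reads in exactly 5 libraries, that of 0.003 years among them, and fell below the minimum without it. The groups overlapped for every host, under its own name and under any name. Counted under any name, 0 of the 34 hosts were called (0%), the lowest adjusted p was 0.723, 0 had an unadjusted p under 0.05, and the median SE was 0.50. The scaling and the spread shared among hosts were estimated anew from these counts. Values can therefore differ from those under own names even for the 5 hosts with no reads under other names. When names that share a junction were merged into loci, 73 loci holding 30.3% of the reads were tested and 0 were called (0%), with a lowest adjusted p of 0.399 and 1 locus at an unadjusted p under 0.05. Directions are relative to the scaling of the libraries, since the median log2 fold change under any name was 0.17 with TMM, -0.03 with total junction reads and -0.23 with the study's factors.

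The errors set what the comparison could show. The dispersion between libraries, the squared coefficient of variation beyond counting error, was 1.95 for the 34 hosts under their own names, 0.405 under any name and 0.406 for the merged loci. The SE of single hosts under their own names ran from 0.74 to 1.86. A difference of 1 on the log2 scale was therefore within 2 SE of 0 for each of them and was not detectable. Larger differences were mostly missed as well. In simulated own-name counts, 5 of 160 changes of 2 and 21 of 160 changes of 3 on the log2 scale were recovered. Under any name the SE ran from 0.28 to 1.35, and those counts were not simulated.

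**Figure D2:**
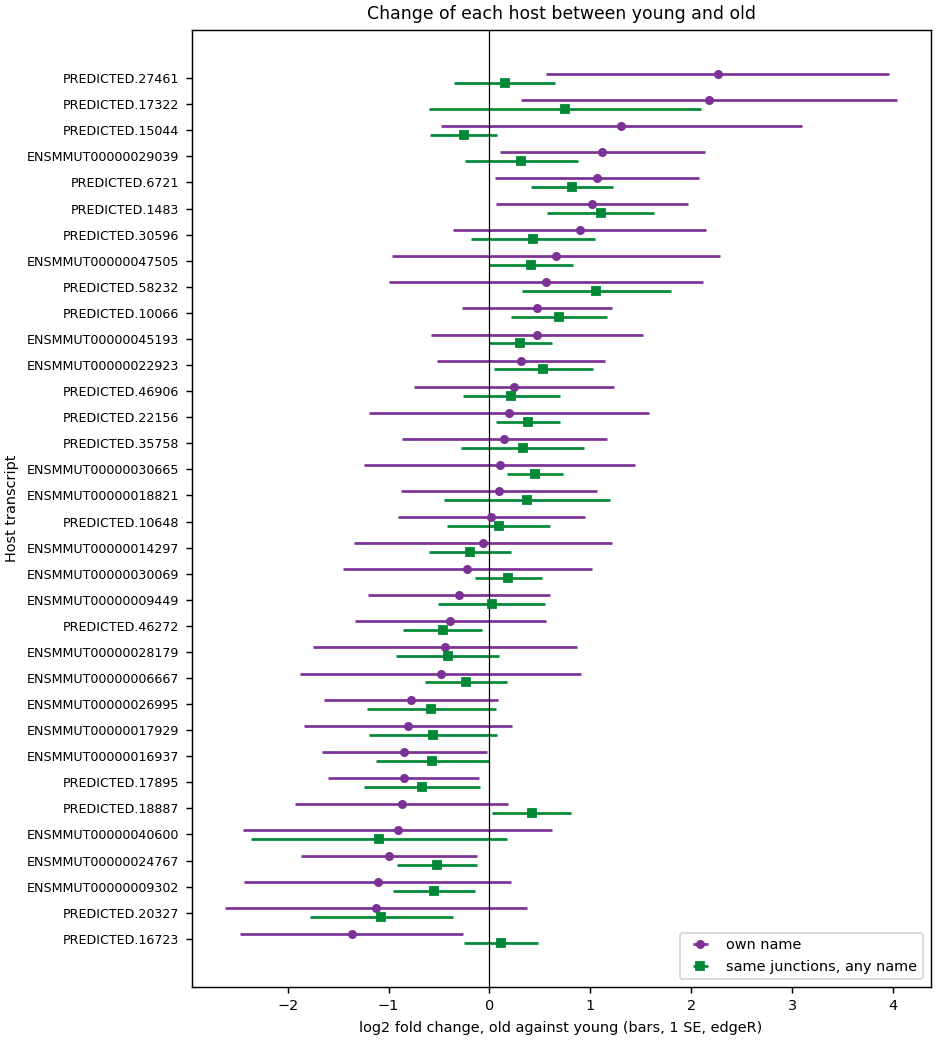
Log2 fold change of each of the 34 hosts, old against young, on the horizontal axis (edgeR, bars 1 SE), counted under the host's own name (circles) and under any name (squares). Under any name the median SE shortens from 1.05 to 0.50, 5 hosts change sign, and the largest size goes from 2.26 to 1.10.

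Within the 13 libraries compared, the naming was most stable for 10 hosts with under 5% of their reads under other names. The host with most reads was ENSMMUT00000045193 (chr2:189036369-189048246, plus strand), with 666 reads under its own name. A circle of 3 exons and 247 nt held 98.9% of them. Per 1000 junction reads it had 0, 9.60 and 14.7 in young (lowest, median and highest of 6) and 7.59, 12.1 and 18.1 in old (lowest, median and highest of 7). The young value of 0 came from the monkey aged 6 years, in which 33 reads of the same junctions were listed under another name (14.2 per 1000). Under any name the means were 11.5 ± 2.66 in young and 12.1 ± 3.70 in old (SD, n = 6 and 7), with a log2 fold change of 0.30 ± 0.31 (SE) beside 0.47 ± 1.05 under its own name, and all 13 libraries lay between 7.59 and 18.1.

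ENSMMUT00000017929 (chr4:53794260-53943206, plus strand) gave 13 junctions, led by a circle of 7 exons and 501 nt with 63.3% of its 447 reads. Its own-name levels were 4.29, 7.44 and 14.4 per 1000 in young and 0, 5.07 and 10.2 in old, with the old libraries of 28.7 and 30.1 years at 0 and the old library of 40.9 years at 10.2. The young libraries were on average higher (8.17 ± 3.63 against 4.78 ± 4.12, SD), but the groups overlapped and the log2 fold change of -0.81 ± 1.03 did not pass (edgeR adjusted p = 0.971). The 3 libraries of monkeys under 1 year had 8.86, 9.51 and 14.4, above the 3 other young libraries (5.94, 6.01 and 4.29). Without those 3 libraries the log2 fold change was 0.01 ± 1.21. Under any name the values were -0.56 ± 0.64 with them and 0.32 ± 0.85 without.

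PREDICTED.35758 (chr20:29319558-29319983, plus strand) consisted of 1 junction, a circle of 2 exons and 327 nt, and none of its 366 reads lay under another name. Young libraries had 3.07, 6.12 and 10.5 per 1000 and old libraries 0, 6.51 and 12.5, so that the medians differed by less than the spread within either group (log2 fold change 0.15 ± 1.01 under its own name and 0.33 ± 0.61 under any name). The counts of this host were the same in both fits, which differed in the scaling and shared spread. The old value of 0 was from the monkey aged 40.1 years. An in-depth library labelled with the same age, sequenced at approximately 100000000 reads and not part of the comparison, held 281 reads of the junction under another name (7.98 per 1000).

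PREDICTED.1483 (chr1:98173778-98202787, plus strand) had 126 reads on 6 junctions, led by a circle of 4 exons and 410 nt, and none under another name. It was listed at 0 in the monkey aged 0.003 years and at 0.967 to 4.29 in the other young animals, against 1.58, 3.05 and 4.64 in old. The means were 1.69 ± 1.47 and 3.03 ± 1.10 per 1000 (SD), and all 7 old libraries lay above the young median of 1.32. The log2 fold change was 1.02 ± 0.95 under its own name (edgeR adjusted p = 0.971). In the fit of the same counts beside the other hosts under any name, where the spread shared among hosts was smaller, it was 1.10 ± 0.53 (adjusted p = 0.723), which did not pass either. The 3 monkeys under 1 year were the 3 lowest young libraries, and without them the log2 fold change was 0.37 ± 1.20 under its own name and 0.57 ± 0.45 under any name.

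Of the less abundant hosts with stable names, PREDICTED.17895 (chr2:45255500-45308296, minus strand, 80 reads) had 0.858, 1.52 and 2.73 per 1000 in young and 0, 0.808 and 1.98 in old, a log2 fold change of -0.85 ± 0.75 (any name -0.67 ± 0.58). ENSMMUT00000016937 (chr11:47935731-47970854, plus strand, 102 reads) had 1.70, 2.25 and 3.86 in young and 0, 0.812 and 4.23 in old (-0.84 ± 0.82, any name -0.56 ± 0.56), with the old libraries of 28.7 and 30.1 years at 0 under any name and that of 40.1 years highest. Those 2 old libraries had the fewest junction reads of the old group (1845 and 1317), which leaves 3 reads at 0.163% and 0.228% of the library. For ENSMMUT00000026995 (chr11:55044782-55050896, plus strand, 142 reads) the levels were 0, 2.50 and 5.46 in young and 0, 1.58 and 3.44 in old (-0.78 ± 0.86, any name -0.58 ± 0.64), and without the 3 monkeys under 1 year the log2 fold change was 1.35 ± 1.19 (any name 1.28 ± 0.80). PREDICTED.10066 (chr11:110177699-110194550, plus strand, 142 reads) went the other way in its medians, from 1.57 in young to 2.82 in old, with a log2 fold change of 0.47 ± 0.74 (any name 0.69 ± 0.48). The groups overlapped for each of these hosts, and the lowest edgeR adjusted p among them was 0.971 under own names and 0.723 under any name.

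The remaining hosts of this kind were ENSMMUT00000022923 (chr15:41836076-41837520), almost all of whose reads (99.0%) came from circular intronic RNAs, and ENSMMUT00000018821 (chr14:105538194-105585481). The first was the only host tested with reads under its own name in all 13 libraries. It had 1.01, 2.98 and 8.15 per 1000 in young and 1.63, 3.80 and 8.12 in old (0.31 ± 0.84, any name 0.54 ± 0.49). The second had 0.429, 2.14 and 3.92 in young and 0, 1.62 and 9.55 in old (0.09 ± 0.97, any name 0.37 ± 0.82), and the highest value, in the monkey aged 40.9 years, stood beside 2 old libraries at 0. Neither host had reads under another name, so that their counts were the same in both fits. Over the 10 hosts with stable names, 6 log2 fold changes were above and 4 below 0, with a median size of 0.62, beside a median size of 0.72 over all 34.

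**Figure D3:**
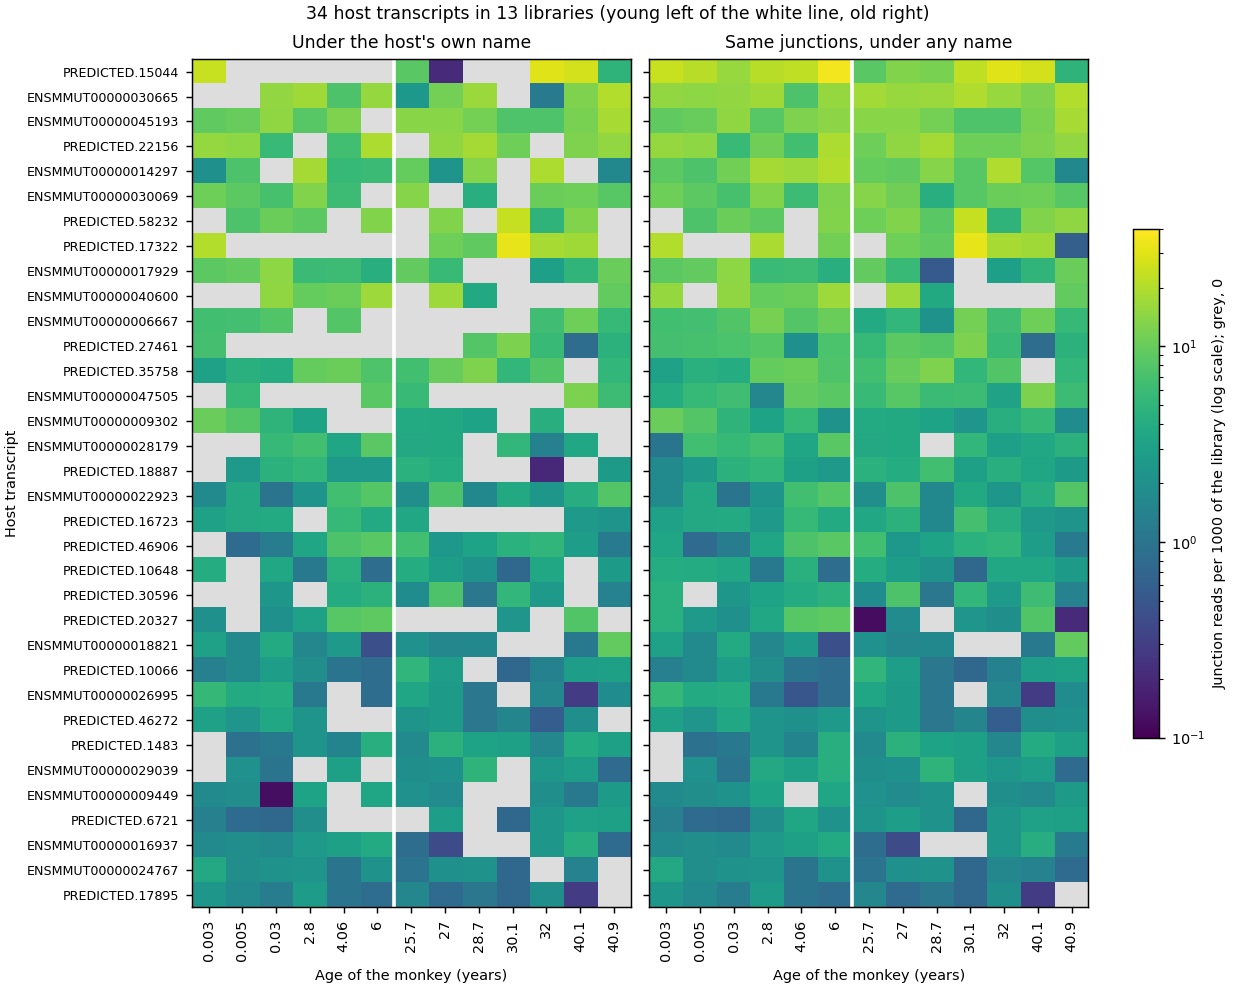
Junction reads per 1000 of the library (colour, log scale, grey 0) for the 34 hosts (rows, ordered by reads under any name) in the 13 libraries (columns, by age), under the host's own name (left) and under any name (right). The 118 grey cells on the left shrink to 26 on the right, and no row separates the young from the old columns.

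Other hosts with most reads had a larger share of their reads under other names. ENSMMUT00000030665 (chr18:72411714-72633735, plus strand) gave 23 junctions, more than any other host tested, led by a circle of 3 exons and 220 nt with 53.9% of its reads. Under its own name it had 0, 11.3 and 16.9 per 1000 in young and 0, 11.5 and 19.9 in old. Under any name it was present in every library at 7.52, 15.0 and 16.9 in young and 12.7, 16.3 and 19.9 in old, and the log2 fold change went from 0.10 ± 1.35 to 0.45 ± 0.28 (adjusted p = 0.723). With the exception of the young monkey aged 4.06 years, at 7.52, all libraries lay between 12.7 and 19.9.

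ENSMMUT00000030069 (chr6:73685575-73701378, minus strand), 99.4% of whose 484 reads came from a circle of 2 exons and 181 nt, was at 0 in 1 young and 2 old libraries under its own name and in none under any name. The any-name levels were 6.01, 9.72 and 12.8 in young and 4.34, 10.5 and 13.4 in old, and the log2 fold change moved from -0.22 ± 1.23 to 0.18 ± 0.33. PREDICTED.22156 (chr6:134283576-134293885, plus strand), led by a circle of a single exon of 208 nt, had 5.81, 12.6 and 19.3 in young and 10.6, 12.7 and 17.9 in old under any name, a log2 fold change of 0.39 ± 0.32 against 0.20 ± 1.39 under its own. ENSMMUT00000014297 (chr18:14771495-14867436, plus strand), with 15 junctions led by a circle of 5 exons and 679 nt, had 7.58, 13.8 and 20.2 in young and 1.62, 9.29 and 19.4 in old (-0.20 ± 0.41, own name -0.06 ± 1.28). The groups overlapped in each of these hosts. For PREDICTED.22156 both the lowest and the highest values were young, and for ENSMMUT00000014297 the lowest was that of the old monkey aged 40.9 years, with the next library at 7.58.

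PREDICTED.15044 (chr2:102990361-103021852, minus strand) was the most abundant of the 34 when counted under any name, with 1040 reads. Its 10 junctions included a circle of 6 exons and 1726 nt, the longest leading circle of any host tested. Under its own name it was at 0 in 5 of 6 young libraries and at 24.2 per 1000 in the monkey aged 0.003 years, and in old it had 0, 4.87 and 30.1. A single own-name read, in the monkey aged 27 years, lay on another chromosome, and 348 of the 7322 assembled names in these libraries were found on 2 or more chromosomes. Under any name all 13 libraries had reads, 15.8, 21.8 and 35.6 in young and 4.87, 12.7 and 30.1 in old, and a log2 fold change of 1.31 ± 1.79 became -0.26 ± 0.33 (adjusted p = 0.728).

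Of the 26 values at 0 under any name, ENSMMUT00000040600 held 5 and PREDICTED.17322 held 4. PREDICTED.58232 (chr9:64242316-64243110, minus strand), with 1 junction of 2 exons and 172 nt, was at 0 under any name in the young monkeys aged 0.003 and 4.06 years and had 7.58 to 12.9 per 1000 in the other young animals, against 4.95, 12.9 and 23.5 in old (1.06 ± 0.73, own name 0.56 ± 1.56). ENSMMUT00000040600 (chr4:43067753-43067939, plus strand) gave only circular intronic RNAs, led by one of 184 nt, and was at 0 under any name in 1 young and 4 old libraries. Where present it had 9.80 to 16.7 in young and 3.79 to 16.6 in old, and its log2 fold change of -1.09 ± 1.27 (own name -0.91 ± 1.53) had an SE larger than its size. The old libraries without it included the one with most junction reads (8144), in which 3 reads would be 0.0368% of the library.

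In-depth libraries of approximately 100000000 reads, which did not enter the test, carried the same ages as a pair of the libraries compared, and it is by the age in the labels that they are set side by side. Any-name counts cover only the junctions that a host had in the 13 libraries compared. An in-depth library can therefore hold more reads under the own name, as for ENSMMUT00000040600 at 40.1 years (265 reads). At 40.1 years (old), with 35205 in-depth junction reads against 3550, ENSMMUT00000040600 had 0 reads in the first library and 7.36 per 1000 (259 reads) in-depth under any name, and PREDICTED.35758 had 0 and 7.98 per 1000 (281 reads). PREDICTED.17322 was at 16.9 in the first and at 0.540 per 1000 (19 reads) in the in-depth library. PREDICTED.15044 had 26.8 and 18.1 per 1000 (636 reads) in the same order, and ENSMMUT00000045193 had 12.1 and 7.33 per 1000 (258 reads). At 0.005 years (young), with 60704 in-depth reads against 6203, PREDICTED.17322 and ENSMMUT00000040600 had 0 reads in both libraries, and PREDICTED.30596 had 0 and 2.34 per 1000 (142 reads). All 34 hosts had reads under any name in the old in-depth library and all but 2 in the young one. The own name was at 0 for 27 and 26 of the hosts, respectively. PREDICTED.35758 and PREDICTED.1483, with no reads under another name in the 13 libraries, were at 0 under their own names in both in-depth libraries. Whether the in-depth libraries came from the same animals and were made anew was not stated in the sources used here.

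**Figure D4:**
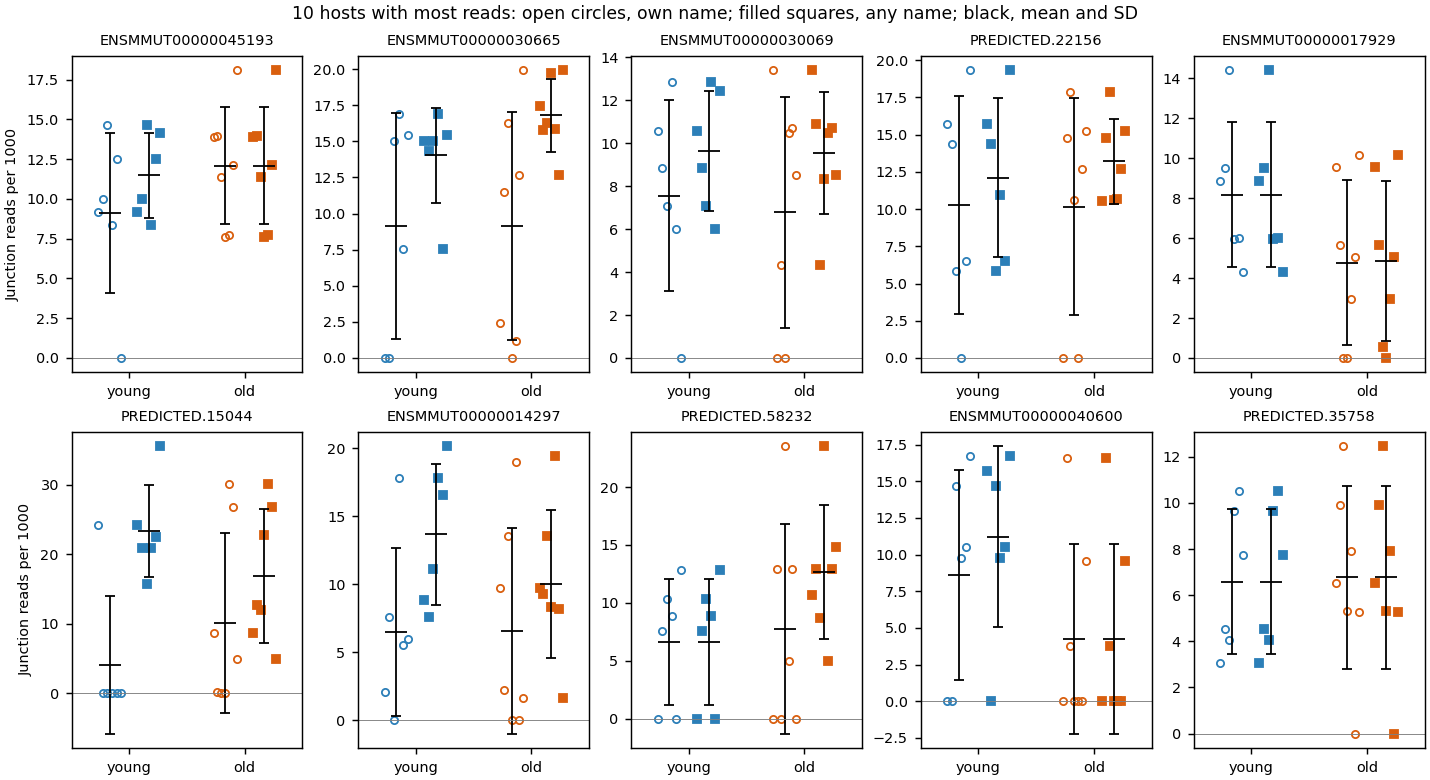
Junction reads per 1000 for the 10 hosts with most reads, by age group, under the host's own name (open circles) and under any name (filled squares), with mean and SD in black. Points of both groups overlap in each panel, and the open circles at 0 mostly have a filled square well above 0.

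The 8 higher and the 8 lower hosts with the smallest p were examined although none passed. The largest own-name value belonged to PREDICTED.27461 (chr8:42216486-42218776, minus strand), a host led by a circle of 2 exons and 201 nt, with a log2 fold change of 2.26 ± 1.70 (p = 0.198 before and 0.971 after edgeR's adjustment). Its own name was listed in 1 of 6 young and 5 of 7 old libraries. The same junctions had reads in all 13 libraries, at 2.0, 7.11 and 8.19 per 1000 in young and 0.845, 5.74 and 12.1 in old, and the log2 fold change under any name was 0.15 ± 0.50. PREDICTED.17322 (chr2:185463752-185472097, plus strand), led by a circle of 2 exons and 405 nt, was listed in 1 young library at 20.1 and in 5 old libraries at 9.21 to 31.9 (2.18 ± 1.86). Under any name it appeared in 3 young libraries (20.1, 18.8 and 11.2) and 6 old ones, and the log2 fold change was 0.75 ± 1.35.

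Of the other hosts on the higher side, PREDICTED.6721 (chr11:31467612-31573907, minus strand), led by a circle of 2 exons and 176 nt, had 0.758, 1.65 and 3.51 per 1000 in young and 0.759, 2.38 and 3.10 in old under any name, with a log2 fold change of 0.82 ± 0.40 (unadjusted p = 0.0570, adjusted p = 0.723, edgeR) beside 1.07 ± 1.01 under its own. The 3 monkeys under 1 year (0.758, 0.806 and 1.36) lay below the 3 other young monkeys (1.93, 2.15 and 3.51), and without the former the any-name value was 0.39 ± 0.47. The old monkey aged 30.1 years had the lowest old value, from 1 read. ENSMMUT00000029039 (chr12:43582360-43605442, minus strand), with a leading circle of 2 exons and 323 nt, went from 1.12 ± 1.01 to 0.32 ± 0.56 (-0.21 ± 0.46 under any name without the 3 monkeys under 1 year), and PREDICTED.30596 (chr8:54377137-54407261, minus strand), a circle of a single exon of 402 nt, from 0.89 ± 1.26 to 0.43 ± 0.61. The any-name values of both lay between 0 and 7.47 per 1000, with young and old libraries intermixed.

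On the lower side, PREDICTED.16723 (chr18:52198952-52265229, plus strand), led by a circle of 4 exons and 804 nt, had the most negative own-name value at -1.37 ± 1.11. It was listed in 5 of 6 young and 3 of 7 old libraries under that name and in all 13 under any name, at 2.57, 3.78 and 5.51 in young and 1.63, 3.56 and 6.83 in old, with a log2 fold change of 0.11 ± 0.37. PREDICTED.18887 (chr2:116829960-116895022, plus strand), with 15 junctions, likewise went from -0.87 ± 1.06 to 0.42 ± 0.39. The values of ENSMMUT00000024767 (chr3:145170660-145176677, plus strand, a leading circle of 4 exons and 427 nt) kept their sign, at -1.0 ± 0.87 and -0.52 ± 0.40, with 1.00, 2.15 and 3.75 in young and 0.759, 1.41 and 2.17 in old under any name. Without the 3 monkeys under 1 year its any-name value was -0.07 ± 0.50. ENSMMUT00000009302 (chr6:119937864-119982336, plus strand), 95% of whose reads came from a circle of 3 exons and 537 nt, had 2.15, 5.22 and 10.2 in young and 1.83, 3.84 and 5.35 in old under any name, with -1.11 ± 1.33 becoming -0.55 ± 0.40. The 3 monkeys under 1 year had 10.2, 8.06 and 4.93 per 1000, and the 3 young monkeys above 1 year had 3.21, 5.51 and 2.15. Without the former 3 monkeys the log2 fold change was 0.35 ± 0.41 under any name. Under its own name it was 1.07 ± 1.63, with 2 of the 3 remaining young libraries at 0 although the same junctions had 11 and 5 reads there under other names.

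The 15 hosts with over 25% of their reads under other names had a median own-name log2 fold change of size 0.89 and a median SE of 1.39, against 0.41 and 0.42 for the same hosts under any name. In the 10 hosts with stable names the median size was 0.62 under their own names and 0.56 under any name. Log2 fold changes larger than 1 in size numbered 9 of 34 under own names and 4 of 34 under any name, and those 4 were PREDICTED.1483 (1.10 ± 0.53), PREDICTED.58232 (1.06 ± 0.73), ENSMMUT00000040600 (-1.09 ± 1.27) and PREDICTED.20327 (-1.07 ± 0.71, own name -1.12 ± 1.49). PREDICTED.20327 (chr2:173225549-173306609, minus strand), named here after its values were seen, had 2.02, 3.98 and 9.01 per 1000 in young and 0, 1.82 and 7.89 in old, with 5 of 7 old libraries below the lowest young value. Under any name with TMM, 9 annotated hosts were below and 8 above 0, and 4 assembled hosts were below and 13 above. These counts depend on the scaling. Over all 34 hosts, 21 were above and 13 below 0 with TMM. With total junction reads 15 were above and 19 below, and with the study's factors 9 were above and 25 below.

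A host tested had a median of 6 junctions (1 to 23), and its leading junction held a median of 69.2% of its reads. The leading circles had 1 to 8 exons (median 3) and were 143 to 1726 nt long. In 29 of the 34 hosts 1 junction held more than 50% of the reads, and 3 hosts were led by circular intronic RNAs. Restricting each host to its leading junction gave 0 calls (lowest adjusted p 0.983). Restricting the sums to exonic circRNAs also gave 0 calls (lowest adjusted p 0.920). That fit covered the 33 hosts with any exonic reads, and the read minimum was not applied again.

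The 11 middle-aged monkeys (11.3 to 16.93 years) did not enter the comparison but give the levels between the age groups. Under any name the median of ENSMMUT00000045193 was 10.7 per 1000 in middle age, beside 11.3 in young and 12.1 in old. For PREDICTED.1483 it was 5.35 (range 1.22 to 12.1), above both the young median of 1.32 and the old median of 3.05. ENSMMUT00000017929 had 3.35, below the medians of 7.44 and 5.07 on either side. For PREDICTED.6721 the middle-aged median of 2.12 lay between 1.65 in young and 2.38 in old, and the 3 ranges overlapped.

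The libraries as a whole were compared by 5 measures, each with an exact two-sided permutation test over the 1716 splits of 6 young and 7 old libraries. Where a measure counts hosts, it does so under their own names, so that the name given to a junction enters it. Total junction reads were 4601 ± 2487 in young and 4255 ± 2296 in old (SD, n = 6 and 7, exact p = 0.800). Thinned to the 1317 reads of the smallest library, the expected number of hosts per library was 694 ± 39.9 in young and 703 ± 38.6 in old (exact p = 0.669). The 10 hosts with most reads took 7.66 ± 1.14% of the junction reads in young and 7.84 ± 1.70% in old (exact p = 0.818). Circular intronic RNAs took 5.83 ± 2.02% and 5.92 ± 1.61%, respectively (exact p = 0.922). Assembled hosts took 64.2 ± 2.82% in young and 66.0 ± 4.74% in old (exact p = 0.455). After adjustment over the 5 measures every p was 0.922, and each difference was smaller than the SD within either group.

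**Figure D5:**
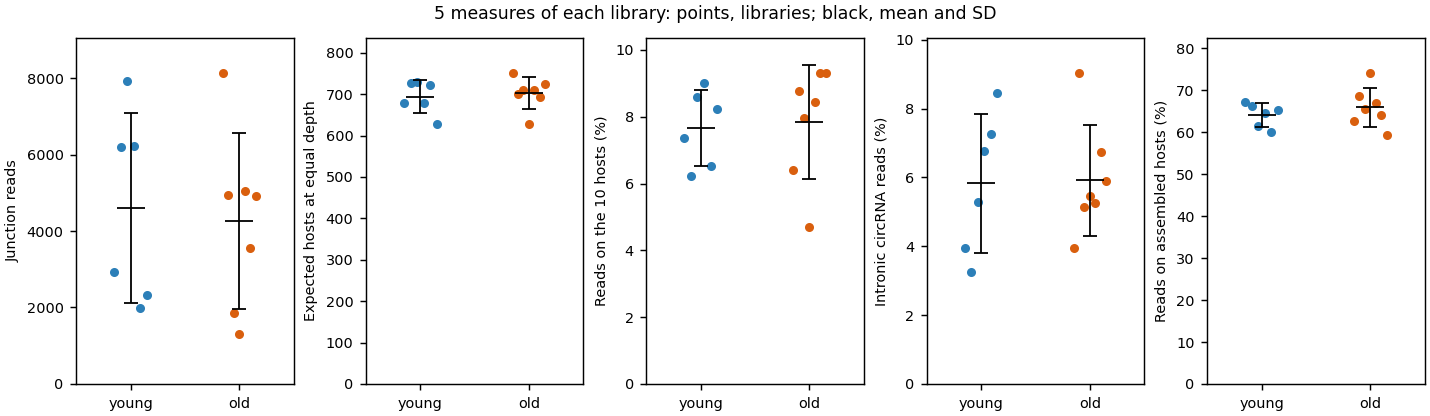
The 5 library measures (vertical axes from 0, units on each axis) for the 6 young and 7 old libraries, with mean and SD in black. The groups overlap in each, as in total junction reads, which run from 1996 to 7918 in young and from 1317 to 8144 in old.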

How the data were processed

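Age groups and ages were taken per the labels. After RNase R digestion, the authors aligned reads to rheMac2 with TopHat2 2.0.14 and Bowtie2 2.2.4, assembled transcripts with Cufflinks 2.2.1 and called circRNAs with CIRCexplorer, per the study's methods and processing notes. The deposited values are whole-number counts of junction reads per circRNA and library, not normalized, with the host transcript of each. Counts were summed per host (the final number of PREDICTED names removed), and hosts with 10 or more reads in 5 or more of the 13 libraries were tested with edgeR 4.0.16 (quasi-likelihood, robust, TMM, Benjamini-Hochberg at 0.05) in R 4.3.3. Total junction reads were the library sizes. TMM factors were computed anew from the tested rows of each set of counts, under own names the 34 hosts with 14.1% of the reads. An SE is the size of a log2 fold change divided by the square root of its F statistic. Any-name counts sum, in each library, all reads on the junctions that a host had in any of the 13 libraries. Merged loci join names that share a junction, split at gaps over 1000000 nt. Library measures were tested with exact permutation tests (scipy 1.17.1). Alternatives included DESeq2 1.42.0, limma 3.58.1, other scalings and minimums, and libraries left out in turn. The study's factors were solved from the averages in its supplementary lists. The script was tested on simulated counts with known changes of 1, 2 and 3 on the log2 scale. For the 34 hosts under own names it recovered 3, 5 and 21 of 160 changes, with 7, 3 and 5 false calls. At a change of 1 the false calls thus outnumbered the changes recovered. The simulated counts were drawn around the mean of each host with its estimated dispersion. They held no switches of name between libraries, so the test under such switches was not checked. For the merged loci it recovered 19, 222 and 296 of 320, with 2, 10 and 12 false calls.

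The hosts named are the 8 higher and 8 lower with the smallest p, none having passed, and the 10 with most reads. Members, lists and rules were chosen with earlier results of these data known. Each library is 1 monkey, and no 2 libraries held identical values. The gene lists and the muscle, matrix, vessel, immune and fat marker lists could not be evaluated without gene symbols, and no sequence is shown because no genome was used here. Coordinates count from 1.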

Additional observations from a re-analysis of the deposited data

Results flagged for a closer look

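Of 106 groups of values examined (the 5 library measures and the 24 named hosts, under their own and under any name, in each age group), 6 held 1 library far from the others, and chance gives about 1 in 20. In 3 of these the young monkey aged 0.003 years was the single young library listed under a host's own name, with 24.2 junction reads per 1000 for PREDICTED.15044, 20.1 for PREDICTED.17322 and 6.82 for PREDICTED.27461, against 0 in each of the other 5 young libraries. Under any name the other 5 young libraries held 513, 143 and 173 reads of the same junctions.

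At 4.06 years of age, a young monkey with only 1996 junction reads was the lowest of its group under any name for ENSMMUT00000030665, at 7.52 per 1000 with the next library at 14.3, and for PREDICTED.27461, at 2.0 with the next at 6.82. The old monkey aged 30.1 years, with the smallest of all 13 libraries (1317 junction reads), was lowest for PREDICTED.6721 under any name, at 0.759 per 1000 from 1 read, with the next old library at 2.17. The part of depth in these values was not tested.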

How the results depend on the processing

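The count of 0 hosts called in either direction held under other scalings, DESeq2, limma-voom, the fit without robust moderation, the lower read minimum, all 24 libraries, the young group without the 3 monkeys under 1 year, merged loci and any-name counts. It did not hold with 10 or more reads in total as the minimum, where 1192 hosts were tested and 1 was higher and 7 lower in old. Those 8 hosts had reads in 1 to 3 libraries each. It also did not hold without the young library of 0.003 years, where the 34 hosts were kept without applying the read minimum again. Over the libraries left out in turn, calls higher in old ranged from 0 to 3, and the 3 were the hosts at 0 in every other young library under their own names, PREDICTED.15044, PREDICTED.17322 and PREDICTED.27461 (leave-one-out log2 fold changes 0.86 to 8.54, 1.68 to 9.13 and 1.71 to 7.65, the highest against a group at 0 and so set by the prior count). Under any name those junctions had 513, 143 and 173 reads in the other young libraries, and merged loci gave 0 calls with that library left out.

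Of 359 values of the 24 named hosts under 15 alternatives, 321 kept their direction and none passed the threshold. The 38 with the opposite sign were these log2 fold changes. With total reads as library size, ENSMMUT00000014297 was 0.0218 and PREDICTED.22156 -0.0165. With DESeq2 size factors, ENSMMUT00000014297 was 0.13. With the study's factors, ENSMMUT00000014297 was 0.0386, ENSMMUT00000030665 -0.30, PREDICTED.22156 -0.32, PREDICTED.35758 -0.0893 and PREDICTED.58232 -0.94. With DESeq2, ENSMMUT00000014297 was 0.13. With limma-voom, ENSMMUT00000014297 was 0.0636, PREDICTED.22156 -0.77, PREDICTED.35758 -0.28 and PREDICTED.58232 -0.66. With exonic circRNAs only, ENSMMUT00000014297 was 0.0477, ENSMMUT00000030665 -0.0652 and PREDICTED.22156 -0.0998. With the leading junction only, ENSMMUT00000014297 was 0.23 and PREDICTED.22156 -0.0290. Without the 3 monkeys under 1 year, ENSMMUT00000009302 was 1.07, ENSMMUT00000017929 0.00674, ENSMMUT00000026995 1.35, ENSMMUT00000030069 0.30, ENSMMUT00000030665 -0.42 and PREDICTED.35758 -0.24. Without libraries under 2000 reads, ENSMMUT00000030069 was 0.11, PREDICTED.22156 -0.15 and PREDICTED.58232 -0.14. In merged loci, ENSMMUT00000030069 was 0.12, PREDICTED.15044 -0.38, PREDICTED.16723 0.0464 and PREDICTED.18887 0.43. Under any name, ENSMMUT00000030069 was 0.18, PREDICTED.15044 -0.26, PREDICTED.16723 0.11 and PREDICTED.18887 0.42. With 5 or more reads in 5 libraries, PREDICTED.22156 was -0.0820 and PREDICTED.35758 -0.10. With 10 or more reads in total, PREDICTED.58232 was -0.00156. With libraries left out in turn, the ranges that crossed 0 were ENSMMUT00000014297 -0.25 to 0.62, ENSMMUT00000030069 -0.48 to 0.12, ENSMMUT00000030665 -0.16 to 0.51, PREDICTED.22156 -0.0682 to 0.46 and PREDICTED.58232 -0.14 to 0.79. The causes were not tested.

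The library measures passed no threshold under any alternative, but their small differences (old minus young) changed sign. Without the 3 monkeys under 1 year, total reads differed by 737, the share of the 10 hosts by -0.0765 and the intronic share by -1.57 percentage points. For 20 hosts in place of 10 the share differed by -0.484 points. With libraries left out in turn the ranges were -995 to 317 reads, -3.89 to 21.8 expected hosts, -0.102 to 0.705 points for the 10 hosts and -0.425 to 0.619 points for intronic reads.

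Scaling moved the median log2 fold change of the 34 hosts from 0.06 with TMM to -0.13 with the study's factors (any name, from 0.17 to -0.23), so that the directions of small differences are relative to the scaling. No paired analysis was possible because each library came from a different monkey. Of the 13 libraries, 3 had under 2000 junction reads, and without them 0 hosts were called, with a lowest adjusted p of 0.996 and a median SE of 1.20. The part of depth was not tested.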

Other observations

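Among the 73 merged loci, the one with the smallest p was chosen after its values were seen. It joins 6 host names, among them ENSMMUT00000026357, at chr3:31016331-31126472 of rheMac2 on the minus strand, and 59 of its 100 reads came from a circle of 2 exons and 223 nt. Young libraries had 0, 1.04 and 1.52 reads per 1000 (lowest, median and highest of 6) and old libraries 0.759, 2.58 and 3.25 (of 7). In old, 6 of 7 libraries lay above the young median, and the lowest old value rested on 1 read. The log2 fold change was 1.44 ± 0.45 (SE), with an unadjusted p of 0.00547 and an adjusted p of 0.399 by edgeR, which did not pass. No host name in this locus reached the read minimum by itself.

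In some hosts the young libraries split by age. The 3 monkeys under 1 year were all above the 3 other young monkeys in 2 of the 34 hosts under any name, ENSMMUT00000017929 and ENSMMUT00000026995, and all below them in 7, among them PREDICTED.1483. For ENSMMUT00000026995 they had 3.87, 4.04 and 5.46 per 1000, above each of the 7 old libraries (0 to 3.44), while the other young monkeys had 0.501, 0.858 and 1.12. These splits were found by looking at the values and were not tested. With 3 libraries on each side, full separation also arises by chance in some of 34 hosts. The 2 and the 7 are therefore given as counts only.

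In the middle-aged monkeys PREDICTED.17322 was at 0 in the median library under any name and reached 27.9 per 1000 in the highest, so that values of 0 beside high values were also found there.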
